A study of Homo sapiens with 2 samples.

Results

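The genes described here are the cell cycle control genes that the authors listed as changed in SNU-449 cells after ezetimibe, without those that also belong to DNA replication or DNA repair. They were taken from the KEGG row Cell cycle of the authors' deposited table, minus every gene that the table also lists under 7 rows of DNA replication and repair. The members were thus chosen by the authors' call of change between the ezetimibe and the control library. This left 70 of the 81 changed genes of the Cell cycle row, out of 2238 changed genes in the whole table. SNU-449 is an established human hepatocellular carcinoma line, and ezetimibe is a cholesterol-lowering drug that binds the sterol transporter NPC1L1. One group was given ezetimibe for 24 h and the other was the control, both grown in RPMI medium with fetal bovine serum; the sources used here state neither the dose nor what the control received. Each group was 1 library of total RNA, so no difference has a replicate check. For a single gene the table holds only whether it was up or down, without a level, a fold or a p-value, and its name sets ezetimibe against control, so "up" is read here as higher after ezetimibe, an order that no value in the table can check. Read depth is unknown. Since that call chose the members, their number and their directions are a description and were not tested.

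The cell cycle is driven by cyclins, which accumulate and are destroyed in turn, and by the cyclin-dependent kinases they switch on. Early in the cycle, cyclin D with CDK4 or CDK6 and then cyclin E with CDK2 phosphorylate the retinoblastoma proteins, which releases E2F factors to transcribe the genes of S phase. Later, cyclin A and cyclin B with CDK1 drive mitosis, and the anaphase-promoting complex ends it by marking cyclin B and securin for destruction. Many genes of the later stage carry a cell cycle homology region, or CHR, in their promoters, bound by a complex that contains E2F4 and a retinoblastoma protein in resting cells and MYB-type factors in dividing cells. CCAAT boxes, bound by NF-Y, often lie near it. In adult liver most hepatocytes rest outside the cycle, and hepatocellular carcinoma lines divide continuously in culture.

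Of the 70 genes, 62 were listed as down and 8 as up after ezetimibe. Of the 8877 background genes of the authors' deposited table, 25.2% were called changed, 17.0% as down and 8.20% as up. Among all 2238 changed genes 67.5% were listed as down, against 88.6% of the 70 genes. All 11 genes that the replication and repair rows took out were listed as down: the helicase subunits MCM2 to MCM7, the sliding clamp PCNA, the damage kinases ATM, ATR and PRKDC, and the ubiquitin ligase subunit RBX1. The 48 background genes of the Cell cycle row that are not among its 81 changed genes have no direction in the table, which does not tell a gene below the authors' criteria from one not expressed. In bulk RNA, fewer dividing cells and less RNA of these genes per cell cannot be told apart.

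**Figure D1:**
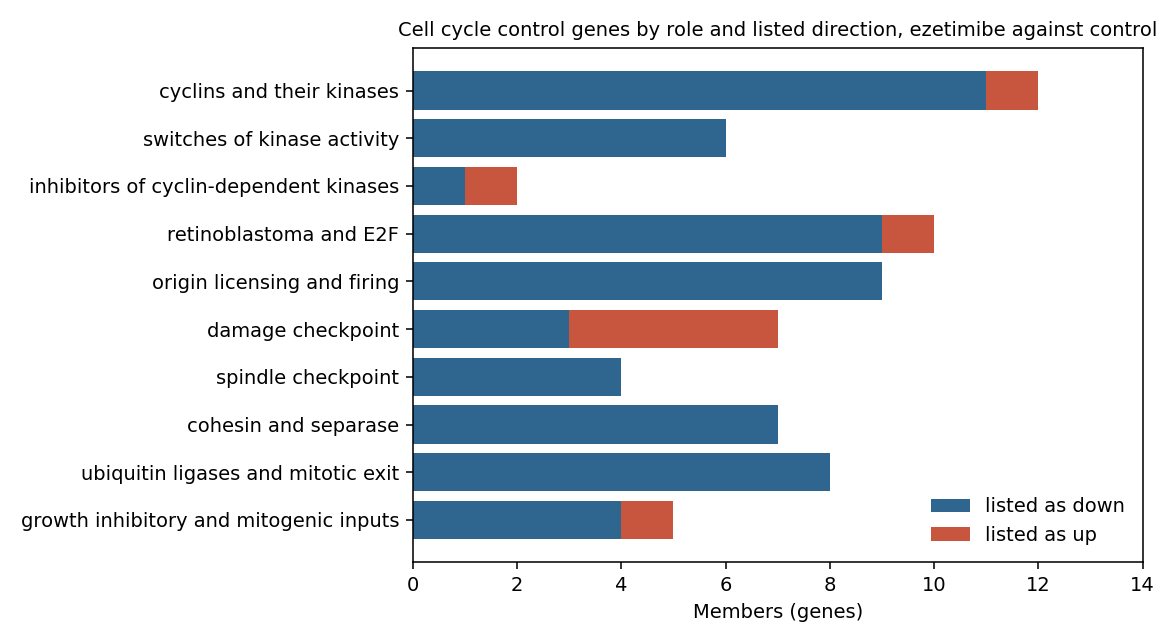
Number of cell cycle control genes (x axis, genes) in each of 10 roles (y axis), split into genes listed as down (blue) and as up (red) after ezetimibe. Origin licensing, the spindle checkpoint, cohesin and separase, the ubiquitin ligases and the switches of kinase activity hold no gene listed as up, and the damage checkpoint group holds 4 of 7.

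The promoters below carry the recognition letters of these regulators and are shown because the members listed as down hold them in different combinations. For genes listed as down, the promoters were ranked by how many of the E2F, CHR and CCAAT motifs they hold, ties by the total number of matches and then by symbol, and the first 6 are printed; E2F1, with as many matches as CDC6, came after it by symbol alone. For genes listed as up, the 2 promoters first in the same ranking over all 4 motifs are printed. Each runs 5′ to 3′ on the strand of the gene, from 250 bases before the RefSeq start site to 50 bases from the start onwards (RefSeq, GRCh38.p14). Capitals mark matches on either strand to 4 kinds of motif. The E2F motif is TTCCCGC or its variant TTGGCGC. The CHR is TTTGAA or its variant TTCGAA, and the box bound by NF-Y is CCAAT. The amino acid response motif, which ATF4 binds together with C/EBP factors, is TGATGNAA. A match is a run of letters and not a shown binding site.
E2F3 (chr6:20401629-20401928, plus strand): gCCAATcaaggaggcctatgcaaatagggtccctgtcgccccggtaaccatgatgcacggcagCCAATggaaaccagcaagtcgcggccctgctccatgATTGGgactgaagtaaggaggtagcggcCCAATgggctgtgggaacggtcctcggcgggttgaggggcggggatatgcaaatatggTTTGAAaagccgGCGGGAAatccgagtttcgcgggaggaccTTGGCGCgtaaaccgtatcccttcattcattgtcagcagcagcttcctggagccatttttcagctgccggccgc
CDK1 (chr10:60778081-60778380, plus strand): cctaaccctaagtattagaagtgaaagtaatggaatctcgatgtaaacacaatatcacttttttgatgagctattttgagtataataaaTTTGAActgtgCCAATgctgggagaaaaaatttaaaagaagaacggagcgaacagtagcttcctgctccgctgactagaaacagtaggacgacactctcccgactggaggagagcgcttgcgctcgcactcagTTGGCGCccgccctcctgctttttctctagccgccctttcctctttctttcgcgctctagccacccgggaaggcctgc
CCNB2 (chr15:59104896-59105195, plus strand): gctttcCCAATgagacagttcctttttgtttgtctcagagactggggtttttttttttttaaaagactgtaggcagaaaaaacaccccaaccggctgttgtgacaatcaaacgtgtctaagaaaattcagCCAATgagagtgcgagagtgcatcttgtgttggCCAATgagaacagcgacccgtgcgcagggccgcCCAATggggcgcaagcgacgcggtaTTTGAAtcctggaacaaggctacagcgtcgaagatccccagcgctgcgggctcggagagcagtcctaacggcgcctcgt
CDC20 (chr1:43358731-43359030, plus strand): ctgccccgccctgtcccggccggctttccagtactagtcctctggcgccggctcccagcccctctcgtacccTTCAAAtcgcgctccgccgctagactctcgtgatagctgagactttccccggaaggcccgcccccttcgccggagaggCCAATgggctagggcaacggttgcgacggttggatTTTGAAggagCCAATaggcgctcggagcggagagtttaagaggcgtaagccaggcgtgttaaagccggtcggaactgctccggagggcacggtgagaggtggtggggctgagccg
CDC25A (chr3:48188368-48188667, minus strand): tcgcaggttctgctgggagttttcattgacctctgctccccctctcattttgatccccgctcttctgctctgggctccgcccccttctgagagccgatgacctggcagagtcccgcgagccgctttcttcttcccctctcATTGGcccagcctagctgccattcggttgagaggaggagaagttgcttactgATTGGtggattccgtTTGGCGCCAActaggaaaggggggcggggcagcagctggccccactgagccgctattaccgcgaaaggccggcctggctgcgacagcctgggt
CDC6 (chr17:40287629-40287928, plus strand): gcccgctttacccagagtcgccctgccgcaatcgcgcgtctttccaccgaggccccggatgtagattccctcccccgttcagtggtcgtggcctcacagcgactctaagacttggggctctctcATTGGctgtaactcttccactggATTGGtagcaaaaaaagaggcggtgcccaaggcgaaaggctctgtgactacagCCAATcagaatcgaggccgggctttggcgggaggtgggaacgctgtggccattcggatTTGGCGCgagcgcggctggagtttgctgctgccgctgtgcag
GADD45G (chr9:89604762-89605061, plus strand): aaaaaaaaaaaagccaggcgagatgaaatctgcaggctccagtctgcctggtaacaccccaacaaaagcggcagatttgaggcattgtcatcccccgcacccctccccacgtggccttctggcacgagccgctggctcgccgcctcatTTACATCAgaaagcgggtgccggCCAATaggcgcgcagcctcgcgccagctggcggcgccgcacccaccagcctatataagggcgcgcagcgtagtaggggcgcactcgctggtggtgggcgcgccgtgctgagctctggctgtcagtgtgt
YWHAB (chr20:44885455-44885754, plus strand): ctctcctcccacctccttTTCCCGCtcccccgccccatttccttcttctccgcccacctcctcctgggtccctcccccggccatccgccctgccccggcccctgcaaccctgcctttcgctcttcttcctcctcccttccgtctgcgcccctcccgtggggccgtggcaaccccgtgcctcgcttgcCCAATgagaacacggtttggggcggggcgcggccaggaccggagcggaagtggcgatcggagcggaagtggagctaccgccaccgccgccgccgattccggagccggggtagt
E2F3 and CDK1, both listed as down, hold all 3 of the E2F, CHR and CCAAT motifs. CCNB2 and CDC20, which act in mitosis, hold CHR and CCAAT without an E2F match. CDC25A and CDC6, which act at entry to S phase, hold E2F and CCAAT without a CHR, and so does YWHAB, listed as up. These promoters were picked by their motifs and do not show a rule by phase or direction. DBF4, an origin gene that is not printed, holds a CHR without an E2F match. The E2F matches of CDC25A are a pair on opposite strands that overlap. GADD45G, listed as up, holds an amino acid response match on the strand opposite to the gene, beside 1 CCAAT. No other printed promoter holds one, but genes listed as down were not ranked on this motif. CDC25C, listed as down and not printed, also holds 1 such match.

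Cyclins were listed as down without exception among the 8 that were listed, of 10 D-, E-, A- and B-type cyclins in the list of roles. CCNH, also in that list, was not listed. They were the D-type cyclins CCND1 and CCND3, which couple growth signals to the cycle, the E-type cyclins CCNE1 and CCNE2 of S phase entry, CCNA2 of S phase and G2, and the mitotic cyclins CCNB1 and CCNB2, with CCNB3, which is known mainly from meiosis. Their kinases were divided. CDK1, the mitotic kinase, CDK2, the partner of cyclins E and A, and CDK6 were listed as down. CDK4 (ENSG00000135446; chromosome 12, 57747727 to 57756013, minus strand; all gene positions are from GENCODE release 29, build GRCh38), which binds the same D-type cyclins as CDK6, was listed as up. The 2 D-type cyclins listed and their 2 kinases did not all share a direction.

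The 6 members that switch these kinases, of 9 genes in the list of roles, were all listed as down. They act in opposite ways: the phosphatases CDC25A, CDC25B and CDC25C remove the inhibitory phosphates from the kinases, whereas WEE1 and PKMYT1 add them. The polo-like kinase PLK1, which activates CDC25C and promotes the destruction of WEE1, was also listed as down. The CDC25 phosphatases and the kinases that oppose them thus carried the same listed direction. AURKA, the kinase that activates PLK1, stands outside the Cell cycle row of this table and was also listed as down. AURKB and WEE2, also in the list of roles, were not listed.

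Of the 7 inhibitors of cyclin-dependent kinases in the list of roles, 2 were listed. CDKN1A (ENSG00000124762; chromosome 6, 36676460 to 36687339, plus strand), which inhibits CDK2 complexes, was listed as up. CDKN2C, which binds and inhibits CDK4 and CDK6, was listed as down. The inhibitors CDKN1B, CDKN1C, CDKN2A, CDKN2B and CDKN2D were not listed.

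In the retinoblastoma and E2F group, 9 of 10 members were listed as down. Of the 18 genes of that role, 4 were not listed: E2F5, HDAC1, ABL1 and LIN52. All 3 retinoblastoma genes, RB1, RBL1 and RBL2, which hold E2F factors in check, were listed as down together with the activating factors E2F1, E2F2 and E2F3, the DNA-binding partners TFDP1 and TFDP2, and the histone deacetylase HDAC2, a co-repressor that retinoblastoma proteins recruit. E2F4 (ENSG00000205250; chromosome 16, 67192169 to 67198918, plus strand), which acts mainly as a repressor with RBL1 and RBL2, was listed as up. Of the genes of the MuvB complex, which joins E2F4 and RBL2 at CHR promoters, LIN37 was listed as up, and LIN9, LIN54 and the histone chaperone RBBP4 as down; the table gives these 4 outside the Cell cycle row.

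Origin licensing and firing held 9 members, all listed as down. They were 5 of the 6 subunits of the origin recognition complex (ORC1, ORC2, ORC3, ORC4 and ORC6), the loader CDC6, which places the helicase on origins, CDC45, a part of the active helicase, and the firing kinase CDC7 with its activating subunit DBF4. ORC5, CDT1, GMNN and DBF4B were not listed. These 9 genes stayed among the members because KEGG places them under Cell cycle and not under DNA replication; all 9 are listed under the Cell cycle row alone.

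The damage checkpoint group held more genes listed as up than any other role, 4 of 7. Among them were GADD45A (ENSG00000116717) and GADD45G (ENSG00000130222), stress-induced proteins that inhibit CDK1, and YWHAB (ENSG00000166913), a scaffold that holds phosphorylated CDC25 in the cytoplasm. The checkpoint kinases CHEK1 and CHEK2, which phosphorylate CDC25 after damage, and YWHAQ, a paralog of YWHAB, were listed as down. With the ATM, ATR and PRKDC genes given above, the damage kinases of the list of roles were all listed as down, while GADD45A, GADD45G and the inhibitor CDKN1A were listed as up. Of the 19 genes of this role, 9 were not listed: MDM2, SFN, EP300, CREBBP, GADD45B, YWHAE, YWHAG, YWHAH and YWHAZ.

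The members that act in mitosis were listed as down, while many other genes of these roles were not listed. The 4 spindle checkpoint members, of 10 genes in the list of roles, were BUB1, BUB1B, MAD2L1 and TTK, which hold back anaphase until every chromosome is attached. The cohesin subunits SMC1A, SMC3, RAD21, STAG1 and STAG2 hold sister chromatids together, ESPL1 (separase) cuts them apart, and PTTG1 (securin) restrains ESPL1. These 7 were listed as down, and 9 of the 17 genes of that role were not listed. So were 5 subunits of the anaphase-promoting complex, ANAPC1, ANAPC4, ANAPC7, ANAPC13 and CDC27, of 13 in the list of roles, and its activator CDC20. The cullin CUL1 and the substrate receptor SKP2, parts of the ligase that marks CDK inhibitors for destruction, completed the 8 ubiquitin ligase members, and 13 of the 23 genes of that role were not listed. Outside the Cell cycle row, SGOL1 and CDCA5, which protect cohesin, and FBXO5, an inhibitor of the anaphase-promoting complex, were listed as down.

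Of 5 genes that bring growth signals to the cycle, 4 were listed as down: the growth-inhibitory ligands TGFB2 and TGFB3, their signal transducer SMAD3, and GSK3B, which marks cyclin D1 for destruction. MYC (ENSG00000136997), a transcription factor that promotes growth and represses CDKN1A, was listed as up, so MYC and CDKN1A carried the same listed direction. Of the 9 genes of this role, 4 were not listed: TGFB1, SMAD2, SMAD4 and ZBTB17. Over all 148 genes of the list of roles, 70 were members, 11 were taken out with the replication and repair rows, 8 were listed in other rows and 59 were not listed.

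Most of the 8 genes listed as up were widely annotated. CDKN1A was listed under 41 pathways, MYC under 32, CDK4 under 27, and GADD45A and GADD45G under 22 each, and 6 of the 8 were under more than 20 pathways, while YWHAB was under 7 and E2F4 under 3. Of the 62 genes listed as down, 10 were, among them CCND1 under 46 and GSK3B under 39. At the other end, 14 of the 62 were listed under the Cell cycle row alone: the 9 origin genes, RAD21, STAG1, STAG2, TFDP2 and TTK. Of all 2238 changed genes, 80 were under more than 20 pathways, 28 listed as up and 52 as down, and 39.9% were under 1 pathway alone, against 20% of the 70 members. The number of pathways says how a gene is annotated and nothing of the size of its change.

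Other rows of the authors' deposited table rest in part on the same genes. Oocyte meiosis held 24 of the 70 genes, 23 of them listed as down and YWHAB as up, which is 46.2% of its 52 changed genes. Its 27 changed genes outside the Cell cycle row were 22 down and 5 up (81.5% down). Progesterone-mediated oocyte maturation held 18, all listed as down, and its 25 other genes were 20 down and 5 up. Cellular senescence held 30 of the 70, with 23 down and 7 up; it includes every member listed as up except YWHAB. Its 46 other changed genes were 29 down and 17 up (63.0% down). In Hepatocellular carcinoma, 16 members were 10 down and 6 up, and 64 other genes 49 down and 15 up (76.6% down). The members' share listed as down was 95.8% in Oocyte meiosis, 76.7% in Cellular senescence and 62.5% in Hepatocellular carcinoma. These rows share genes, and no difference between members and other genes of a row was tested.

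**Figure D2:**
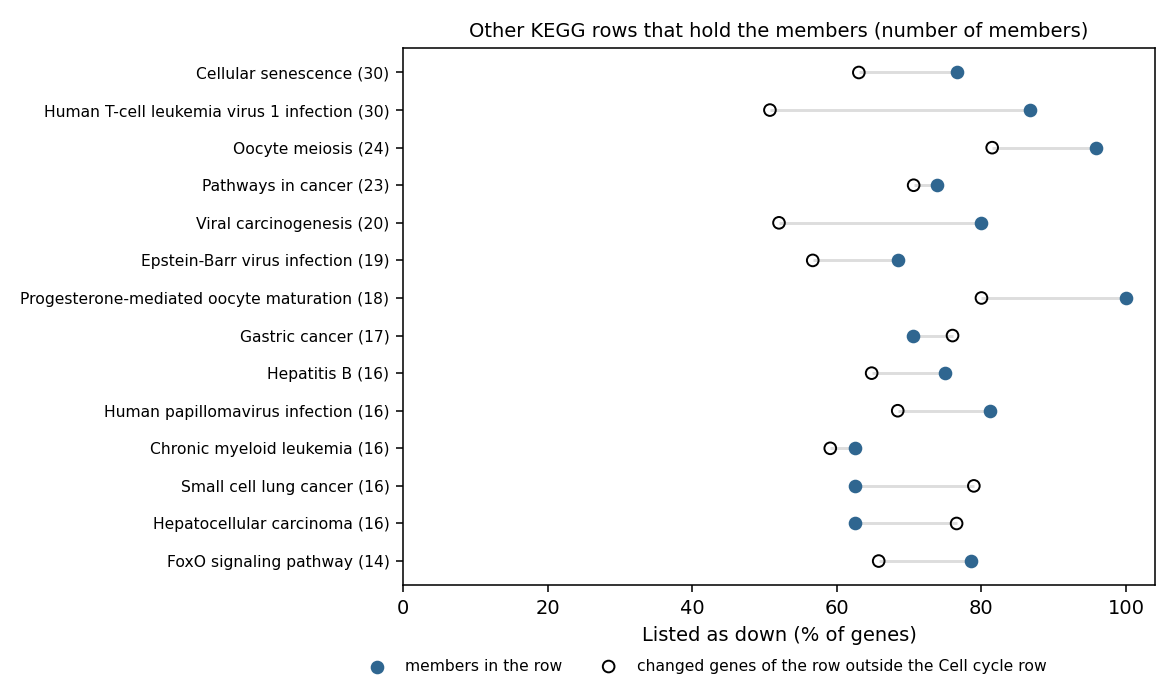
Share of genes listed as down (x axis, % of genes) in 14 other KEGG rows among those that hold the most members (y axis, number of members in brackets), for the members in each row (filled points) and for the row's changed genes outside the Cell cycle row (open points). All 18 members in Progesterone-mediated oocyte maturation are listed as down, and in Hepatocellular carcinoma 62.5% of the 16 members are, against 76.6% of the other genes.

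Direction in this table went with the base composition of the transcripts, and the same was seen within the 70 genes. The longest GENCODE transcript had a median GC content of 53.7% for the 8 genes listed as up (43.2% to 63.9%) and of 44.4% for the 62 listed as down (36.6% to 66.2%). The ranges overlapped: PKMYT1 at 66.2% and E2F1 at 62.5% were listed as down, and YWHAB at 43.2% was listed as up. For changed genes outside the 70, the medians were 55.2% on the up side and 43.6% on the down side. All changed genes were then split into 3 equal classes by GC content. In the class with the lowest GC content, 26 of 26 members were listed as down, against 669 of 720 other changed genes (92.9%). In the middle class 27 of 30 members were (90.0%), against 472 of 715 (66.0%), and in the class with the highest 9 of 14 (64.3%), against 306 of 732 (41.8%). The share listed as down was thus higher among the members within each class, and it declined with GC content among the members as among the others; neither was tested.

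**Figure D3:**
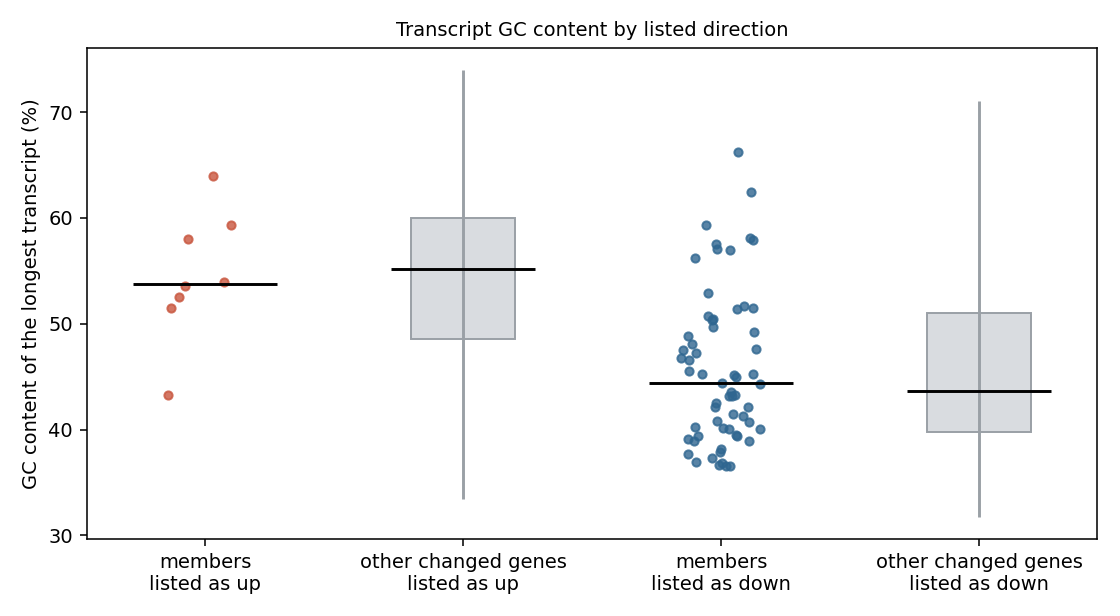
GC content of the longest GENCODE transcript (y axis, %) for the members listed as up (red points, n = 8) and as down (blue points, n = 62), with black lines at the medians, beside other changed genes listed as up and as down (boxes from the lower to the upper quartile, grey lines from the lowest to the highest, black lines at the medians). The members' medians of 53.7% and 44.4% lie near those of the other changed genes, 55.2% and 43.6%.

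Length went the same way. The median longest transcript was 2316 bases for the 8 genes listed as up and 3754 bases for the 62 listed as down. Of the 27 members in the shortest of 3 equal classes of transcript length 7 were listed as up, and of the 43 other members only YWHAB was. In that class 20 of 27 members were listed as down (74.1%), against 364 of 719 other changed genes (50.6%). In the middle class 25 of 25 members were, against 472 of 720 (65.6%), and in the longest 17 of 18 (94.4%), against 611 of 728 (83.9%). Among changed genes outside the members, the share listed as down was thus also lowest for the shortest transcripts. Pairs of paralogs listed in opposite directions did not all follow this order. CDK4, listed as up, has a transcript of 2076 bases with 53.6% GC, and CDK6, listed as down, has 11612 bases with 39.5% GC. E2F4, listed as up, and E2F1, listed as down, are alike, with 2615 bases at 59.3% GC and 2503 bases at 62.5% GC. YWHAB, listed as up, and YWHAQ, listed as down, also have nearly the same GC content, 43.2% and 43.5%. Their transcripts have 5867 and 2216 bases, so in this pair the longer one belongs to the gene listed as up. The part of composition and length in the listed directions was not tested. For 15 of the 70 genes, among them CDK4, E2F4, YWHAB and YWHAQ, GENCODE holds at least 1 pseudogene named after the gene; the sources used here do not say how reads shared with such copies were counted, so these directions are uncertain.

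The promoter letters were then counted over the members, which were chosen by KEGG annotation and the authors' call, without use of sequence. Unlisted genes of the Cell cycle row were not counted. The shares below therefore cannot separate annotation as a cell cycle gene from the listed change. RefSeq windows matched 60 of the 70 genes by symbol, 55 listed as down and 5 as up. An E2F motif was found in 16 of the 60 (26.7%), against 1922 of 15783 other protein-coding genes (12.2%) and 193 of 1130 other changed genes listed as down (17.1%). A CHR was found in 15 of the 60 (25%), against 2133 of 15783 (13.5%) and 149 of 1130 (13.2%). CCAAT was found in 28 of the 60 (46.7%), against 5738 of 15783 (36.4%) and 405 of 1130 (35.8%). CHR and CCAAT occurred together in 8 of the 60 (13.3%), against 890 of 15783 (5.64%). None of the 3 motifs was found in 19 of the 60 (31.7%), against 7762 of 15783 (49.2%). The amino acid response motif was in 2 of the 60, CDC25C and GADD45G (3.33%), against 396 of 15783 (2.51%). These shares were not tested against each other. Median GC content was 62% over the 60 windows and 62.7% over the other protein-coding windows. Windows were also split into 3 equal classes by GC content. In the class with the lowest, E2F was found in 3 of 14 members (21.4%), against 279 of 5305 others (5.26%), and CHR in 5 of 14 (35.7%), against 1388 of 5305 (26.2%). In that class CCAAT was found in 4 of 14 members (28.6%), against 2274 of 5305 others (42.9%), the reverse of its order over all windows. In the middle class E2F was in 8 of 30 members (26.7%), against 762 of 5235 others (14.6%), CHR in 9 (30%), against 530 (10.1%), and CCAAT in 18 (60%), against 2042 (39.0%). In the class with the highest GC content E2F was in 5 of 16 members (31.3%), against 881 of 5243 others (16.8%), CHR in 1 (6.25%), against 215 (4.10%), and CCAAT in 6 (37.5%), against 1422 (27.1%).

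**Figure D4:**
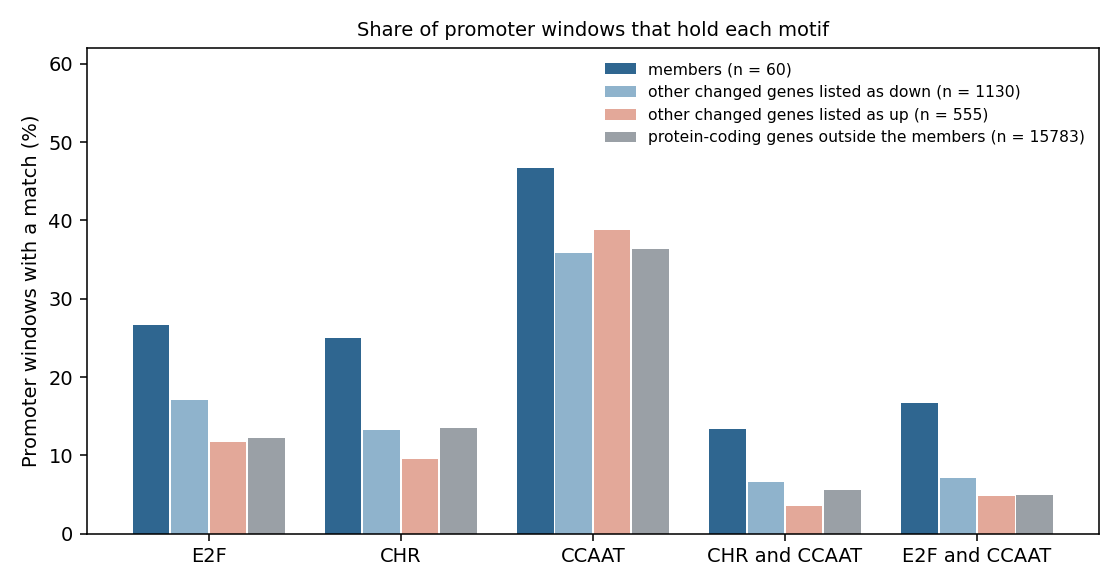
Share of promoter windows (y axis, %) that hold each motif or pair of motifs (x axis) among the 60 members with a window, other changed genes listed as down, other changed genes listed as up, and protein-coding genes outside the members. The members' share is the highest of the 4 for each motif shown, with 26.7% for E2F, 25% for CHR and 46.7% for CCAAT.

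By role the numbers of windows are small, from 2 to 10, and differences between roles were not tested. E2F matches lay in 3 of 4 windows of the kinase switches (CDC25A, CDC25B and CDC25C), 4 of 10 of the retinoblastoma and E2F group (E2F1, E2F2, E2F3 and RBL1), and 4 of 9 of the origin genes (CDC6, CDC7, ORC1 and ORC3), which make up 11 of the 16. The others were CDK1, ANAPC13, CDC27, STAG1 and, among genes listed as up, YWHAB. CHR matches lay in all 3 spindle checkpoint genes with a window, BUB1, BUB1B and MAD2L1, and in CCNB2, CDK1, PLK1, CDC20, ESPL1 and SMC3. The remaining CHR matches were in ANAPC1, ANAPC7, CUL1, DBF4, E2F3 and RBL2. With CDC20, ANAPC1, ANAPC7 and CUL1 make up 4 of the 8 ubiquitin ligase windows. CCAAT lay in all 5 windows of the damage checkpoint group, in 5 of 9 of the origin genes, 4 of 9 of the cyclins and their kinases, 4 of 6 of cohesin and separase, and in 1 to 3 windows of each other role except the inhibitors of cyclin-dependent kinases, with 0 of 2. No CHR was found in the 5 windows of genes listed as up, a number too small to read anything from. In ORC1 the E2F and the CCAAT match share letters, since the complement of CCAAT can run into TTGGCGC; such a shared run was in 1 of the 60 windows and in 124 of the 15783 others.

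Most E2F and CHR matches of the members lay close to the start site. Of the 20 E2F matches, 15 (75%) lay within 100 bases before to 50 bases after it, against 1121 of 2141 (52.4%) in other protein-coding genes. Of the 16 CHR matches, 12 (75%) did, against 927 of 2453 (37.8%). Of the 51 CCAAT matches, 29 (56.9%) did, against 4630 of 8620 (53.7%), so CCAAT differed little in place. In other changed genes listed as down, these shares were 58.7% for E2F, 45.9% for CHR and 57.1% for CCAAT. Differences in place were not tested. In the 8 genes with both a CHR and a CCAAT, BUB1, CCNB2, CDC20, CDK1, E2F3, ESPL1, MAD2L1 and PLK1, the nearest pair was separated by 4 bases in CDC20, 5 in CDK1, 12 in ESPL1, 20 in CCNB2, 39 in PLK1, 50 in BUB1, 53 in E2F3 and 248 in MAD2L1. In CDC20 and CDK1 this CCAAT lay downstream of the CHR, and in the other genes upstream of it. CDC20 also holds a CCAAT upstream of that CHR. The CHR of CCNB2 and that of PLK1 begin at the same place, 29 bases before the start.

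**Figure D5:**
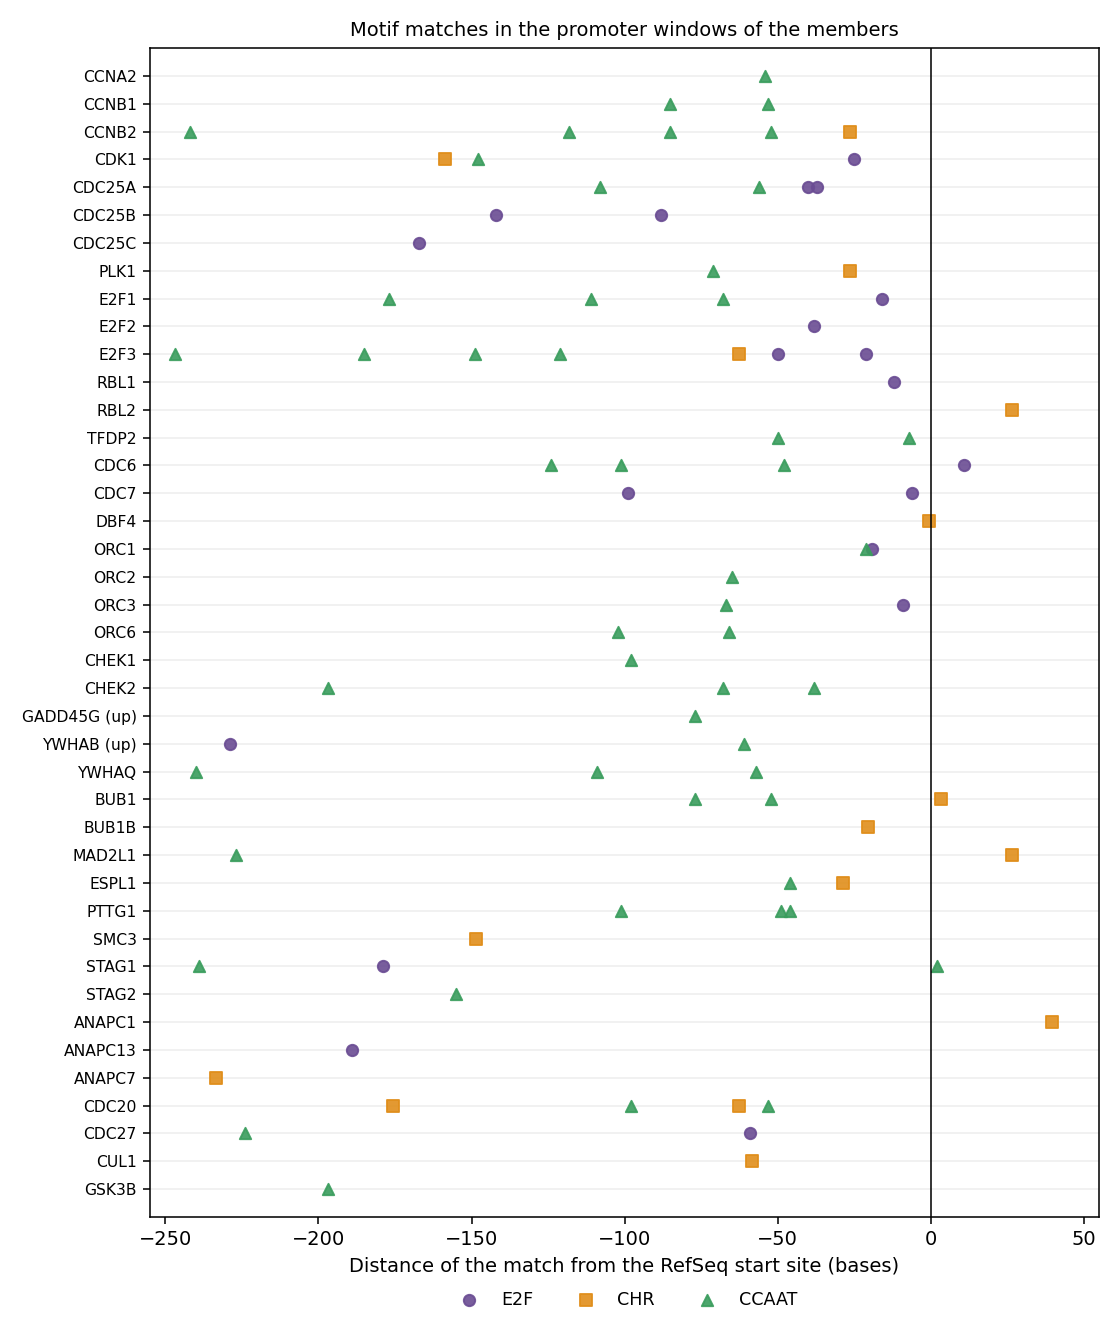
Place of each E2F (circle), CHR (square) and CCAAT (triangle) match relative to the RefSeq start site (x axis, bases, vertical line at the start) in the members that hold at least 1 of them (y axis, ordered by role; genes listed as up are marked). Circles and squares crowd within 100 bases of the start, where 15 of 20 E2F and 12 of 16 CHR matches lie.

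The labels call the cells liver, and a table of directions cannot show whether liver genes were expressed. Of 10 hepatocyte markers 4 were listed, all as down (FGA, FGB, FGG and CPS1). Of 4 fibroblast markers 3 were listed as down, of 5 biliary markers 2 as down, of 3 leukocyte markers CD68 as up, and of 3 endothelial markers 0 were listed. Over all background genes 25.2% were listed, 17.0% as down, and 67.5% of all changed genes were listed as down. The marker counts are too small to read a change of any cell type from. Levels of these markers are not in the table, and their part in the listed directions was not tested.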

How the data were processed

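Total RNA of 1 ezetimibe library and 1 control library of SNU-449 cells was sequenced. HISAT2 2.0.4 and StringTie 1.3.0 were used, per the submitters' processing notes; no source used here states the genome build, annotation or depth. By its name, the authors made the deposited table by edgeR and a KEGG enrichment; the threshold, and the way a single library a group was handled, are not stated. Per the file headers, the table holds for 327 KEGG pathways the numbers of changed and background genes, the changed genes listed as up or down, and the authors' enrichment ratio (rich factor), p-value and q-value, which are not used as results here.

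The deposited gene lists were parsed by Ensembl gene ID. Each list of changed genes was the union of the row's up and down lists, and no gene had both directions. The members, the 10 role lists and the motifs were chosen with earlier results of these data known. Members are named by role, except 1 that is not reported here; pairs of paralogs were picked out after their directions were seen. List names were matched through current and older symbols (1 name had no gene ID). GC content and length are those of the longest GENCODE release 29 transcript, found for 2237 of 2238 genes; the authors' annotation may differ. Promoter windows are RefSeq (GRCh38.p14), matched by symbol for 60 members and 1745 changed genes; for genes with several start sites, the window nearest to the outer end of the gene was used. Motifs were searched as exact letters on both strands, and the search was checked on simulated windows. No test across genes was made: with 1 library a group there is no spread between cultures, and the contrast chose the members. Software was pandas 2.3.3, Matplotlib 3.10.9, SciPy 1.17.1 and NumPy 2.4.6 under Python 3.11.15.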

Additional observations from a re-analysis of the deposited data

How the results depend on the processing

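Without a level per gene, the alternatives could only change which genes or letters were counted. The share of members listed as down was 88.6% (exact Clopper-Pearson 95% interval 78.7 to 94.9, for counting only). It was 90.1% for the whole Cell cycle row. It lay above the interval, at 96.3% of 54, without members under more than 20 pathways, and at 95.7% of 47 without members that are also in Pathways in cancer; both leave out 6 of the 8 genes listed as up. Over all changed genes the share was 67.5%, 66.6% outside the Cell cycle row and 67.6% without genes under more than 20 pathways. E2F was found in 12 to 20 of the 60 member promoters over the shorter window (150 bases before the start), the strand of the gene alone, and any window of a gene, the last chosen after seeing the data. CHR was found in 12 to 20 over the same settings. In other protein-coding genes E2F was found in 8.77% with the shorter window, 6.71% on 1 strand and 14.7% with any window. For CHR these shares were 7.77%, 8.08% and 17.4%. CCAAT was found in 46.7%, in 24 to 36 of the 60 with the shorter window and with any window, and in 25% on the strand of the gene alone, where other protein-coding genes held it in 21.1%; a search of 1 strand finds fewer matches by construction. With the shorter window and with any window, other protein-coding genes held CCAAT in 28.8% and 42.1%. Median GC content was 45.2% over the members' transcripts and 62% over their promoter windows. Counts of degradation motifs in the proteins were planned and not run, since protein sequences were not used here. No paired analysis was possible because each group is 1 library. Depth is unknown, so nothing can be said of genes that are not listed.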
